A study of Mus musculus and Homo sapiens with 10 samples.

Results

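The regions described here are the narrower peaks of the upstream binding factor (UBF) that were called in HMLER cells and not in HMEC cells. They were chosen from the list of HMLER UBF peaks by position alone: a peak had to be under 1506 bp wide and to overlap no UBF peak of HMEC by as much as 1 bp. Of the 32274 UBF peaks of HMLER, 22471 (69.6%) met both conditions, and these are called members below. The remaining 9803 peaks fell into 3 classes: 5077 wide peaks absent from HMEC, 1736 narrower peaks shared with HMEC and 2990 wide peaks shared with HMEC.

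HMLER is a tumorigenic human line made from mammary epithelial cells, and it expresses the SV40 large-T antigen, TERT and the oncogenic allele HRASV12G. HMEC, its counterpart, consists of primary mammary epithelial cells immortalized by TERT, so TERT is common to both lines. Both were grown in the same epithelial medium (HuMEC ready medium) and were taken for chromatin immunoprecipitation with sequencing (ChIP-seq) while in exponential growth. The same UBF1/2 antibody served for HMLER and HMEC, and a further list gives RNA polymerase I (Pol I) in HMEC, from antibodies against its largest subunit. Each list stands for 1 sample of 1 line, so no difference between cell lines or classes of peaks could be tested against replicate error. The lists hold no expression values, so the cell type of the lines was not checked against markers.

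UBF is an HMG-box protein that binds and bends DNA. It is known for its place along the ribosomal RNA genes, where it keeps the chromatin open and helps assemble the Pol I initiation complex. Pol I transcribes the precursor of the large ribosomal RNAs in the nucleolus, while UBF has also been mapped at many sites outside those genes. The growth pathways that RAS and SV40 large-T act on are known to raise ribosomal RNA synthesis.

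The deposited lists give a chromosome, a start and an end per peak in build hg19, with no height, score or read count, so the depth behind a peak is unknown. The HMLER UBF list covered 38.2 Mb with 32274 peaks, the HMEC UBF list 5.24 Mb with 9478 peaks and the HMEC Pol I list 2.88 Mb with 9294 peaks. The HMEC UBF peaks were also narrower, with a median of 469 bp against 982 bp in HMLER. A region without an HMEC peak is therefore a region without a call in a shorter list, which does not show that UBF was absent from HMEC there. Of all HMLER UBF peaks, 85.4% lacked an HMEC UBF peak, and that share belongs to the rule and is read no further. The range in parentheses after a share is its 95% binomial interval by the exact Clopper-Pearson method, with each peak as 1 trial. It covers counting error only, and peaks next to each other are not independent. No gene annotation of hg19 was used here, so peaks are named by position.

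The members made up most of the HMLER list by number and a smaller part of it by length. They covered 18.6 Mb, 48.7% of the bases in HMLER UBF peaks. Their widths ran from 191 to 1505 bp, with a median of 804 bp and quartiles of 583 and 1051 bp. The wide peaks absent from HMEC had a median of 1898 bp, the narrower shared peaks 1134.5 bp and the wide shared peaks 2152.5 bp. Since the rule set these widths, they are a description and not a finding.

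Within the members the widths were unevenly spread, as the histogram of widths shows. The smallest width in the HMLER list, 191 bp, was held by 292 members, whereas the next commonest single width was held by 48. Only 166 members were 1 to 20 bp wider than that smallest width. A second unevenness lay at 589 bp: 721 members were 569 to 588 bp wide, and 380 were 589 to 608 bp wide. That boundary was picked after the widths were seen. One narrower shared peak had the smallest width (0.0576% of its class, against 1.30% of members).

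**Figure D1:**
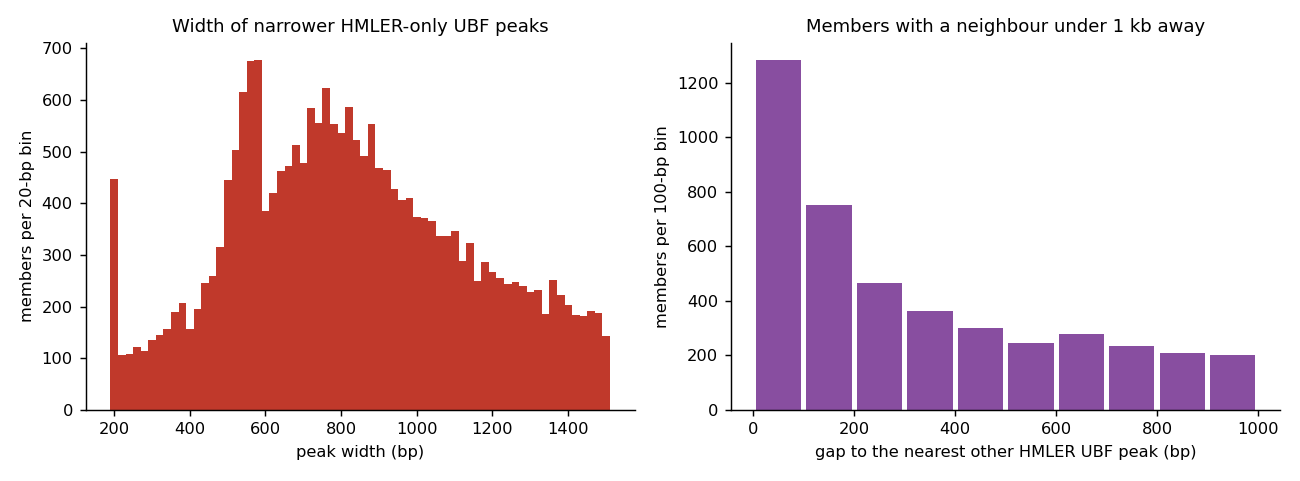
Left: number of narrower HMLER-only UBF peaks per 20-bp bin of peak width (bp). Right: number of members per 100-bp bin of the gap (bp) to the nearest other HMLER UBF peak, for gaps under 1000 bp. The first width bin stands above its neighbours because it holds the 292 members of 191 bp, and the first gap bin holds 1284 members, against 203 in the last.

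Members at the smallest width lay apart from other peaks. Of these 292, 6.51% (3.96 to 9.97) had a wide HMLER UBF peak within 10 kb, against 19.97% (19.4 to 20.5) of the other 22179 members. Another member lay within 10 kb of 15.1% (11.2 to 19.7) of them, against 43.6% (42.9 to 44.2) of the others. An HMEC UBF peak lay within 10 kb of 6.16% (3.69 to 9.57), against 17.1% (16.6 to 17.6). Pol I overlapped 1 of the 292. The first 3 in order of position all lay on chromosome 1, from 1159766 to 1159957, from 53078922 to 53079113 and from 55104998 to 55105189. The first of them lay 1.14 kb from an HMEC UBF peak, the next 208 kb and the last 363 kb.

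The peaks just inside and just outside the width limit are given as a description. The widest members, 8 in number, were 1505 bp wide. The first 5 by chromosome name and position lay on chromosome 1 from 6361442 to 6362947 and from 157986232 to 157987737, on chromosome 15 from 68933240 to 68934745, on chromosome 17 from 3640852 to 3642357 and on chromosome 3 from 49208142 to 49209647. One of these, the second on chromosome 1, overlapped an HMEC Pol I peak, over 174 bp. The narrowest of the wide HMLER-only peaks, 7 in number, were 1506 bp wide. The first 5 lay on chromosome 1 from 205512043 to 205513549, on chromosome 12 from 100967013 to 100968519 and from 124456147 to 124457653, on chromosome 15 from 31195340 to 31196846 and on chromosome 19 from 4473590 to 4475096. Of these also 1 overlapped Pol I, the peak on chromosome 15, over 383 bp. The one on chromosome 12 from 124456147 lay 645 bp from an HMEC UBF peak and 9 bp from another HMLER peak, and the one on chromosome 19 lay 13 bp from a further wide HMLER peak.

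The first question was whether the members lie beside wider HMLER peaks. About 1 in 5 did: 4448 members (19.8%, 19.3 to 20.3) had an HMLER UBF peak of 1506 bp or more within 10 kb, measured between peak edges. The same held for 19.3% of all HMLER UBF peaks, so the share of the members was close to that of the list. It was likewise close to the 20.4% (19.3 to 21.6) of wide HMLER-only peaks with a further wide peak that near. The shared peaks stood lower, at 16.2% (14.5 to 18.0) of the narrower and 15.6% (14.3 to 16.9) of the wide ones, and the intervals of both lie under that of the members. The stretches within 10 kb of a wide HMLER peak made up 5.52% of the 2944 Mb spanned by the 3 human lists on chromosomes 1 to 22 and X.

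The wide neighbours of the members mirrored the make-up of the list. A wide HMLER-only peak lay within 10 kb of 3066 members (13.6%, 13.2 to 14.1), and a wide peak shared with HMEC within 10 kb of 1709 members (7.61%, 7.26 to 7.96). The list holds 5077 peaks of the first kind and 2990 of the second, and the shares over all HMLER UBF peaks were 13.4% and 7.33%. Wide HMLER-only peaks had a further one of their own kind that near in 15.5% (14.5 to 16.5) of cases and a wide shared peak in 6.50% (5.84 to 7.21). Narrower shared peaks had a wide HMLER-only peak within 10 kb in 9.97% (8.60 to 11.5) and a wide shared peak in 7.55% (6.35 to 8.89). The median member lay 48.8 kb from the nearest wide HMLER peak, with quartiles of 14.4 and 139 kb, against a median of 45.3 kb for wide HMLER-only peaks, 60.5 kb for narrower shared peaks and 66.9 kb for wide shared peaks.

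Taking the nearest HMLER peak of any class gave the composition of the list again. For 70.6% (70.0 to 71.2) of members it was another member, for 15.5% a wide HMLER-only peak, for 5.07% a narrower shared peak and for 8.87% a wide shared peak. These classes made up 69.6%, 15.7%, 5.38% and 9.26% of the list.

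Some members were all but joined to a neighbour. A gap of at most 100 bp separated 1290 members (5.74%, 5.44 to 6.05) from another HMLER UBF peak, against 5.69% of all HMLER UBF peaks. The smallest gap was 2 bp, found at 19 members, and 164 members had a gap of at most 10 bp. Gaps under 100 bp were held by 1284 members, gaps of at least 100 and under 200 bp by 753 and gaps of at least 900 and under 1000 bp by 203. The neighbour within 100 bp was another member for 71.7% (69.2 to 74.2) of these members, a wide HMLER-only peak for 14.3% (12.5 to 16.4) and a wide shared peak for 10.3% (8.70 to 12.1).

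Joining close neighbours changed how many regions met the rule. With HMLER peaks at most 1 kb apart joined, 18324 joined regions were narrower than the limit and free of HMEC UBF, and they held 18509 members (82.4%). A further 2510 members (11.2%) fell into regions made of members alone that reached 1506 bp or more. A wide HMLER peak was part of the joined region for 1233 members (5.49%) and a shared peak for 739 (3.29%), with 1452 in a region that held a peak of either kind. With peaks at most 5 kb apart joined, 13832 members (61.6%) stayed in a region that met the rule.

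**Figure D2:**
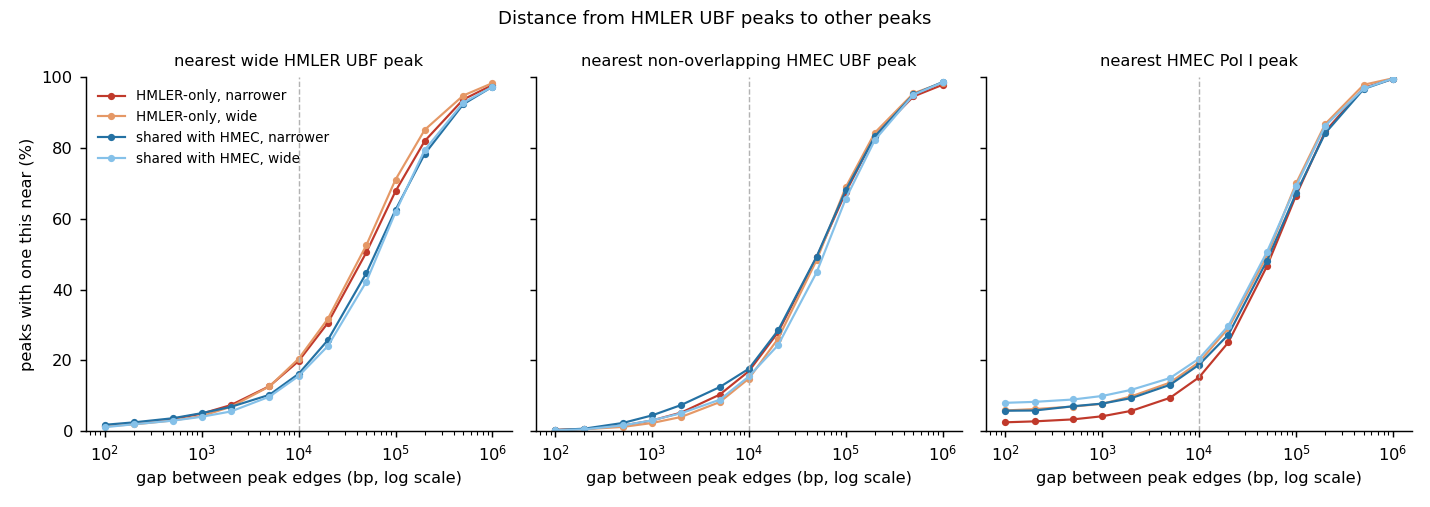
Share of HMLER UBF peaks (%) with the nearest wide HMLER UBF peak, non-overlapping HMEC UBF peak or HMEC Pol I peak at or under a given gap (bp, log axis), for the narrower and wide peaks absent from HMEC and the narrower and wide peaks shared with it. The dashed line marks 10 kb, where 19.8% of members, 20.4% of wide HMLER-only peaks, 16.2% of narrower shared peaks and 15.6% of wide shared peaks had a wide HMLER peak. In the Pol I panel, peaks that overlap Pol I count at every gap.

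The second question was whether the members flank UBF sites of HMEC. By the rule no member overlaps one. For 2 members the gap was 0, the edge of an HMEC peak being printed at the same position as that of the member. The counting origin is not given, so whether these share a base is unknown. An HMEC UBF peak lay within 10 kb of 3805 members (16.9%, 16.4 to 17.4). Counting only HMEC peaks that do not overlap the HMLER peak itself, the share was 16.5% of all HMLER UBF peaks. It was 14.9% (13.9 to 15.9) of wide HMLER-only peaks, whose interval lies under that of the members, and 17.6% (15.9 to 19.5) of narrower shared peaks and 15.5% (14.2 to 16.8) of wide shared peaks. The stretches within 10 kb of an HMEC UBF peak made up 5.55% of the span.

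Few members lay directly beside an HMEC site. Within 1 kb lay an HMEC UBF peak for 676 members (3.01%, 2.79 to 3.24), with a median gap of 472 bp, against 116 wide HMLER-only peaks (2.28%, 1.89 to 2.73) and 77 narrower shared peaks with a further HMEC peak (4.44%, 3.52 to 5.51). The wide shared peaks stood at 3.04% (2.46 to 3.72) and all HMLER UBF peaks at 2.97%, close to the members. For 394 of the 676 the nearest HMEC peak was one that another HMLER peak overlapped, and for 282 it was an HMEC peak with no HMLER peak on it. HMEC itself held 5382 UBF peaks of the first kind and 4096 of the second. Seen from HMEC, 278 of the 4096 UBF peaks absent from HMLER (6.79%, 6.04 to 7.60) had a member within 1 kb, and 1271 (31.0%, 29.6 to 32.5) had one within 10 kb. The stretches that near to a member made up 2.05% and 12.1% of the span. The shares over all HMEC UBF peaks were not counted, so these values are a description only. Within 100 kb lay an HMEC UBF peak for 67.5% (66.9 to 68.1) of members and 68.9% (67.6 to 70.2) of wide HMLER-only peaks, with overlapping intervals, and for 67.6% of all HMLER UBF peaks.

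Nearness to wide HMLER peaks and nearness to HMEC UBF are not separate measures, because a wide peak shared with HMEC brings an HMEC UBF peak with it. Both lay within 10 kb of 1986 members (8.84%, 8.47 to 9.22), where the share over all HMLER UBF peaks was 8.56%. The other members were divided as follows: 2462 (10.96%) had a wide HMLER peak alone and 1819 (8.09%) an HMEC UBF peak alone. Neither lay within 10 kb of 16204 members (72.1%, 71.5 to 72.7). Of all HMLER UBF peaks, 19.3% had a wide HMLER peak that near and 16.5% a non-overlapping HMEC UBF peak. The members stood close to both, at 19.8% and 16.9%, so the 72.1% does not set them apart from the list.

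The members had another of their kind nearby about as often as the whole HMLER list had a member nearby. Another member lay within 10 kb of 9708 members (43.2%, 42.6 to 43.9), where 42.4% of all HMLER UBF peaks had a member that near. The wide HMLER-only peaks stood at 43.3% (41.9 to 44.7), the narrower shared peaks at 36.9% (34.6 to 39.2) and the wide shared peaks at 38.3% (36.5 to 40.1). The median gap from a member to the next member was 13.9 kb, with quartiles of 3.28 and 42.1 kb. Wide HMLER-only peaks lay at the same median distance, 13.9 kb, from a member, and narrower and wide shared peaks at 19.2 and 18.0 kb.

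Chained at gaps of at most 10 kb, the members formed 16507 runs. Of these 12763 held a single member, 2496 held 2, 1011 held 3 to 4 and 237 held 5 or more, with 15 in the largest. Members in longer runs lay beside wide HMLER peaks more often. No runs or like shares were counted for other HMLER UBF peaks, so neither the runs nor this order is read as a trait of the members. A wide HMLER peak was within 10 kb of 39.1% (36.5 to 41.7) of the 1389 members in runs of 5 or more, of 29.5% (28.0 to 31.1) in runs of 3 to 4, of 21.0% (19.9 to 22.1) in pairs and of 14.7% (14.1 to 15.3) of single members. The share with an HMEC UBF peak within 10 kb followed the same order, at 28.2% (25.9 to 30.7), 23.6% (22.1 to 25.04), 18.8% (17.7 to 19.9) and 13.2% (12.7 to 13.8). Median widths differed little, at 836, 823, 821 and 785 bp. Overlap with Pol I stood at 3.10% (2.25 to 4.15) in runs of 5 or more and 2.09% (1.85 to 2.36) in single members, with overlapping intervals.

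**Figure D3:**
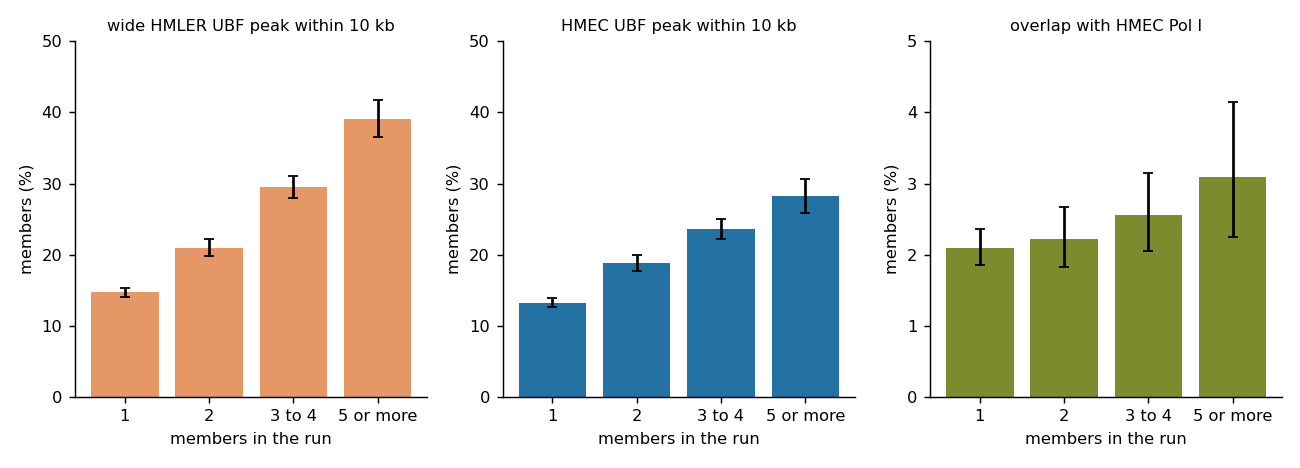
Share of members (%) with a wide HMLER UBF peak within 10 kb, with an HMEC UBF peak within 10 kb and with an overlapping HMEC Pol I peak, by the number of members in their run (gaps of at most 10 kb). Bars are shares and error bars exact 95% binomial intervals. The bars for wide HMLER peaks stand at 14.7% for single members and 39.1% in runs of 5 or more, and the Pol I panel has its own axis, which ends at 5%.

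The runs with the most members differed in what else they held. On chromosome 19 a run from 1064510 to 1115332 held 15 members of 387 to 1118 bp over 50.8 kb, with 1 wide HMLER-only peak among them and no HMEC UBF or Pol I peak. On chromosome 6 a run from 44009014 to 44052638 held 15 members of 563 to 1191 bp over 43.6 kb, with 1 HMEC UBF peak, no wide HMLER peak and no Pol I. Both runs were made almost entirely of members, but the runs were picked by their number of members, so this is a description only.

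The next run, on chromosome 7 from 130572158 to 130609322, held 12 members of 390 to 1145 bp. It held no other UBF peak of either line and 1 Pol I peak, and 2 of its members overlapped Pol I. A second run on chromosome 19, from 49115913 to 49153086, held 11 members of 456 to 1468 bp. With them lay 1 wide HMLER-only peak and 2 Pol I peaks, and 1 member overlapped Pol I. The run on chromosome 1 from 2457038 to 2497957 held 10 members of 379 to 1318 bp and 1 wide HMLER-only peak. Tied with it was a run on chromosome 14 from 77503949 to 77537635, which held 10 members of 449 to 1193 bp and no other UBF or Pol I peak. None of these 6 runs held a shared UBF peak of HMLER. Since they were picked by their number of members, and other stretches were not counted, that is a description too.

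Fixed windows of 100 kb gave a similar picture. At least 1 member lay in 10293 of 29460 windows (34.9%), and the 1011 windows with 5 or more (3.43% of windows) held 6459 members (28.8%). The same was not counted for all HMLER UBF peaks, so this crowding is not read as a trait of the members. The 2 fullest windows held 16 members each, on chromosome 19 from 1000001 to 1100000 and on chromosome 6 from 44000001 to 44100000. The first had 3 wide HMLER-only peaks and no HMEC UBF or Pol I peak, the second 1 wide HMLER-only peak, 1 wide shared peak and 2 HMEC UBF peaks.

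Windows with 14 members lay on chromosome 20 from 48800001 and on chromosome 22 from 30600001. The window on chromosome 20 had 1 wide shared peak, 3 HMEC UBF peaks and no Pol I, and that on chromosome 22 had 1 wide HMLER-only peak, 1 HMEC UBF peak and 4 Pol I peaks. A further 6 windows held 13 members each: chromosome 17 from 38600001, chromosome 19 from 49100001, chromosome 20 from 49000001, chromosome 3 from 52000001, chromosome 5 from 172200001 and chromosome 9 from 139900001. Among these, the window on chromosome 17 was the one rich in HMEC UBF, with 10 HMEC peaks and 4 narrower shared peaks. All 10 windows held a wide HMLER peak, 8 held an HMEC UBF peak and 5 held a Pol I peak. Of their 138 members, 2 overlapped Pol I, where 2.25% of all members and 3.47% of all HMLER UBF peaks did. How many of all windows held such peaks was not counted, so these counts are a description only.

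At the other extreme, 1333 members (5.93%, 5.63 to 6.25) had no UBF peak of either human line within 100 kb. This held for 5.22% (4.62 to 5.87) of wide HMLER-only peaks, with overlapping intervals. The share over all HMLER UBF peaks was not counted, so isolation is not read as a trait of the members. The median width of these isolated members was 724 bp, against 809 bp for the remaining members. Pol I overlapped 2.40% (1.65 to 3.37) of the isolated and 2.24% (2.05 to 2.45) of the remaining members. The most isolated lay on chromosome 1 from 190447159 to 190448182, 2.33 Mb from the next UBF peak, and it overlapped an HMEC Pol I peak over 322 bp. Next came a pair on chromosome X, from 92927958 to 92928842 and from 90689545 to 90690367, which lay 2.24 and 2.23 Mb from the nearest UBF peak. Members on chromosome 3 from 81810054 to 81811531 and on chromosome 13 from 62920192 to 62920572 lay 1.99 and 1.95 Mb away. Pol I overlapped none of these other 4.

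The chromosomes differed widely in how many members they carried. Over chromosomes 1 to 22 and X the members numbered 7.63 per Mb of span, against 2.74 wide HMLER peaks per Mb, 3.22 HMEC UBF peaks per Mb and 3.15 HMEC Pol I peaks per Mb. Chromosome 19 carried the most, at 22.6 per Mb, followed by chromosome 17 at 18.5, chromosome 22 at 15.2 and chromosome 20 at 12.9. Chromosome 4 carried the fewest, at 2.80 per Mb, with chromosome X at 3.36, chromosome 18 at 3.68 and chromosome 13 at 4.20. Chromosomes 17, 19 and 22 are known to be rich in genes and chromosomes 4, 13, 18 and X to be poorer in them.

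The order of the chromosomes was nearly that of the other lists. Across the 23 chromosomes the members per Mb went with wide HMLER peaks per Mb at a Spearman rho of 0.98 and a Pearson r of 0.97, with HMEC Pol I at 0.93 and 0.89 and with HMEC UBF at 0.90 and 0.85. These values are a description: the chromosomes share the same libraries, and members and wide peaks come from 1 list.

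Chromosome X stood apart in HMEC UBF. It held 87 HMEC UBF peaks, or 0.561 per Mb, the fewest of the 23 chromosomes and below the 2.12 per Mb of chromosome 18, the next in order. The 22 autosomes together held 3.37 per Mb. X stood less far down in Pol I, with 292 HMEC Pol I peaks (1.88 per Mb, against 3.22). Members made up 78.6% of the 663 HMLER UBF peaks on X, against 69.4% on the autosomes. That share and the nearness to HMEC UBF both depend on how many HMEC UBF peaks X holds, and they are given as a description. Of the 521 members on X, 20 (3.84%, 2.36 to 5.87) had an HMEC UBF peak within 10 kb, against 17.3% (16.8 to 17.8) on the autosomes. Overlap with HMEC Pol I showed no such gap, at 13 of the 521 (2.50%, 1.34 to 4.23), against 2.25% (2.06 to 2.45) on the autosomes. X also carried few wide HMLER peaks, 0.826 per Mb against 2.85.

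On the autosomes the share of members in the list, which the rule also sets in part, ran from 62.9% on chromosome 4 to 74.5% on chromosome 22. The share of members with a wide HMLER peak within 10 kb ran from 6.62% on chromosome 18 to 31.2% on chromosome 17. The share with another member within 10 kb ran from 25.1% on chromosome 4 to 57.4% on chromosome 19, the chromosome with the most members per Mb. On X that share was lower, at 23.6%. Median width ran from 738 bp on chromosome 18 to 933 bp on chromosome 21. The remaining 11 members lay on unplaced or unlocalised contigs and none on chromosome Y.

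**Figure D4:**
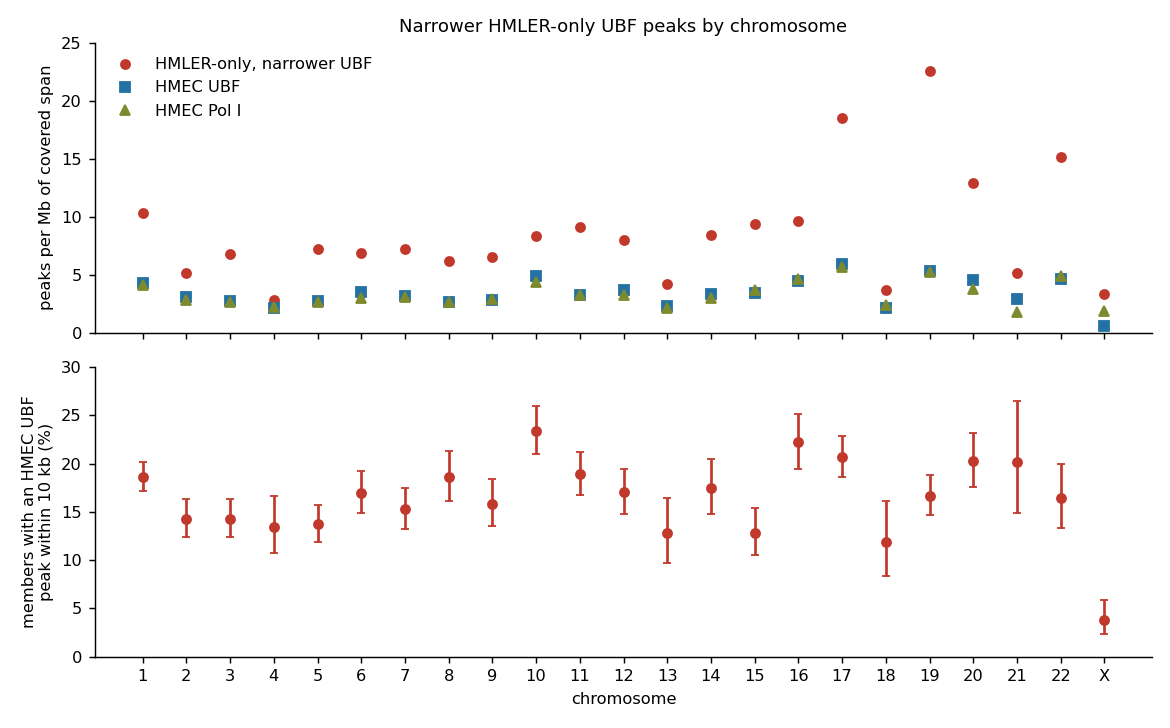
Top: peaks per Mb of covered span on each chromosome for narrower HMLER-only UBF peaks, HMEC UBF and HMEC Pol I. Bottom: share of members (%) with an HMEC UBF peak within 10 kb, with exact 95% binomial intervals. Members stand highest on chromosome 19, at 22.6 per Mb, and the share near HMEC UBF is lowest on chromosome X, at 3.84%.

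The last question was whether Pol I was found in HMEC at sites where UBF was called only in HMLER. Overlap with HMEC Pol I was not used by the rule. It was rare: 506 members (2.25%, 2.06 to 2.45) overlapped a Pol I peak, where 3.47% of all HMLER UBF peaks did. The share was 5.63% (5.01 to 6.30) of wide HMLER-only peaks, 5.36% (4.35 to 6.52) of narrower shared peaks and 7.83% (6.89 to 8.85) of wide shared peaks. The interval of the members lies below all 3.

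Wider peaks meet more by their width alone, and the overlap grew with width within the members. It stood at 1.32% (1.04 to 1.65) for widths of 191 to 583 bp, 1.49% (1.19 to 1.84) for 584 to 804 bp, 2.34% (1.96 to 2.77) for 805 to 1051 bp and 3.87% (3.38 to 4.41) for 1052 to 1505 bp. The next wider HMLER-only peaks, of 1506 to 1999 bp, went on from there at 5.26% (4.49 to 6.13). With every peak set to 500 bp about its centre the share was 1.72% (1.55 to 1.90) for members and 2.03% (1.66 to 2.46) for wide HMLER-only peaks, with overlapping intervals. Counted in bases, 0.678% of the length of members lay in Pol I peaks, against 0.813% for wide HMLER-only peaks, and Pol I peaks covered 0.0962% of the span.

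Against the shared peaks the difference was present at like width as well. In the 4 width groups the narrower shared peaks overlapped Pol I at 4.60% (1.27 to 11.4, 87 peaks), 5.88% (3.17 to 9.85, 221 peaks), 3.94% (2.22 to 6.41, 381 peaks) and 5.83% (4.49 to 7.42, 1047 peaks), from narrowest to widest. The interval was clear of that of the members in the second and the fourth group and overlapped it in the first and the third. At 500 bp the narrower shared peaks stood at 4.32% (3.41 to 5.39) and the wide shared peaks at 3.04% (2.46 to 3.72), both above the members. The shared peaks were chosen by UBF in HMEC, the line in which Pol I was measured. No Pol I list of HMLER was analysed here.

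**Figure D5:**
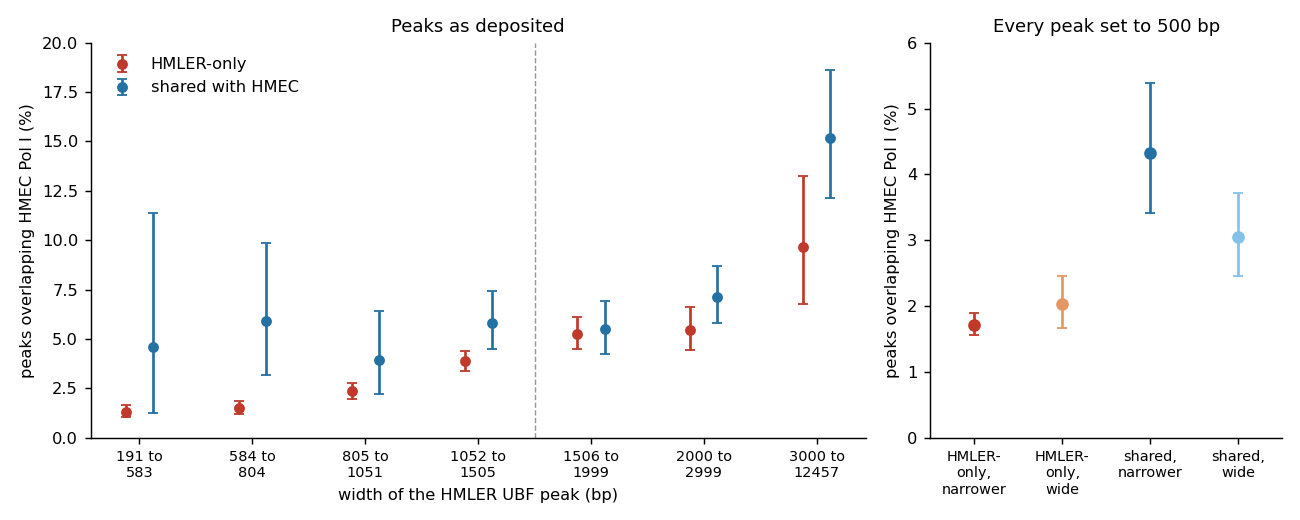
Share of HMLER UBF peaks (%) that overlap an HMEC Pol I peak, with exact 95% binomial intervals. Left: by peak width (bp) for peaks absent from HMEC and shared with it, the dashed line marking the 1506-bp limit. Right: for the 4 classes with every peak set to 500 bp, where members stand at 1.72% and wide HMLER-only peaks at 2.03%.

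Pol I overlap was slightly higher in members near other UBF peaks. It was 2.65% (2.201 to 3.17) for members with a wide HMLER peak within 10 kb and 2.15% (1.95 to 2.38) for those without, and 2.60% (2.12 to 3.16) with an HMEC UBF peak within 10 kb and 2.18% (1.98 to 2.40) without. The intervals overlap in both cases, which does not show the shares to be equal, and the difference was not tested. Of the 506 members that overlapped Pol I, 344 had neither neighbour. These were 2.12% (1.91 to 2.36) of the 16204 members with neither, close to the 2.25% of all members. A Pol I peak overlapped or lay within 10 kb of 15.2% (14.8 to 15.7) of members, against 16.6% of all HMLER UBF peaks. The share was 19.5% (18.4 to 20.6) of wide HMLER-only peaks and 18.8% (17.0 to 20.7) of narrower shared peaks. These shares include overlap itself, which was 2.25% in members, 5.63% in wide HMLER-only peaks and 5.36% in narrower shared peaks. Nearness without overlap was not counted apart. Within 50 kb, overlap again included, the shares were 46.5% (45.9 to 47.2) of members and 47.5% of all HMLER UBF peaks. They were 49.4% (48.1 to 50.8) of wide HMLER-only peaks and 48.1% (45.7 to 50.5) of narrower shared peaks.

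Seen from Pol I, the members were the class met most often. Of the 9294 HMEC Pol I peaks, 1151 (12.4%, 11.7 to 13.1) overlapped an HMLER UBF peak, and 515 of these (44.7%) overlapped a member. Members make up 69.6% of the list and 48.7% of its bases, and a Pol I peak could meet peaks of more than 1 class. Pol I peaks on members had a median width of 295 bp, against 288 bp for those that met no HMLER UBF peak.

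The 506 members with Pol I had a median width of 961.5 bp, against 800 bp for those without. A single Pol I peak overlapped 496 of them, 2 peaks overlapped 9 and 3 peaks overlapped 1. The median overlap was 258 bp, with quartiles of 179 and 310 bp, or 26.0% of the member. In 56 members at least 50% of the peak was covered, and 2 members lay wholly inside a Pol I peak.

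The members with the most bases in Pol I were scattered over the genome. The first lay on chromosome 1 from 567149 to 568652: of its 1503 bp, 1321 lay in 3 Pol I peaks, and a wide HMLER peak lay 20 bp away. It was followed by one on chromosome 9 from 70645763 to 70646894, with 954 of 1131 bp in Pol I, and by one on chromosome 1 from 161426864 to 161427754, with all of its 890 bp in Pol I. Members on chromosome 6 from 31926429 to 31927516 and on chromosome 22 from 37724622 to 37726034 had 730 and 591 bp in Pol I. These differ in their surroundings: the nearest HMLER peak lay 155 kb from the one on chromosome 9, 16.1 kb from the second on chromosome 1, 10.9 kb from that on chromosome 6 and 314 bp from that on chromosome 22.

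The other 5 of the 10 had 534 to 576 bp in Pol I. They lay on chromosome 4 from 129473850 to 129474748, on chromosome 22 from 40390652 to 40391894, on chromosome 10 from 75666148 to 75667277, on chromosome 9 from 127596521 to 127597706 and on chromosome X from 114969588 to 114970122. The one on X was the other member wholly inside a Pol I peak, and it lay 115 kb from the nearest HMLER UBF peak and 2.38 Mb from the nearest HMEC UBF peak. The one on chromosome 10 was the nearest of the 10 to an HMEC UBF peak, at 1.79 kb.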

How the data were processed

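Of the 10 deposited lists, the 3 human ones were used: UBF in HMLER, UBF in HMEC and Pol I in HMEC. The 7 mouse NIH3T3 lists were left out, since mouse and human positions cannot be compared. The authors deposited peak coordinates in 3 columns, with no counts or scores. For these lists, per the submitters' processing notes, the tools were Picard, BWA and CASAVA 1.8.2, with no role stated, and hg19 is the human build. The choice of peak caller, threshold and input was not given in the sources used here. Width is end minus start. Positions are printed as in the files, whose counting origin is not given. With 1 list per group there is no test, and no depth.

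Members are the HMLER UBF peaks under 1506 bp that share no base with an HMEC UBF peak. An end printed at the same position as a start was taken as no shared base. Distances are gaps between peak edges. Windows were assigned by peak centre, and the span of a chromosome runs from its first to its last human peak. Overlaps and gaps were computed with Python 3.11.15, numpy 2.4.6, pandas 2.3.3 and scipy 1.17.1, and the code was tested on simulated intervals. Peaks named one by one, with ties taken by position, are the 5 widest members, the 5 narrowest wide HMLER-only peaks, the 3 narrowest members, the 10 with the most bases in Pol I, the 10 fullest windows, the 5 longest runs (with a sixth tied for last place) and the 5 members farthest from any human UBF peak on their chromosome. The members and these choices were made with earlier results of these data known. No sequence is shown, and no gene list was counted, since no hg19 genome or annotation was used here.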

Additional observations from a re-analysis of the deposited data

How the results depend on the processing

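No paired analysis was possible because each antibody and line has 1 list and the labels give no replicate numbers. Of 60 alternatives over 6 results, 24 left the value within its interval, or a count within 1.5 times, and 36 moved it. The 22471 members became 13690 regions with HMLER peaks within 5 kb joined, and the other 8 alternatives gave counts within 1.5 times. The fullest window, with 16 members, held 72 at a window of 1 Mb.

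With a width limit of 1000 bp, 33.3% of members had a wider HMLER peak within 10 kb, 17.4% an HMEC UBF peak, 33.8% another member, and 1.67% overlapped Pol I. With a limit of 2000 bp these were 11.7% for wider peaks, 46.0% for members and 2.60% for Pol I. Distances of 1, 5 and 50 kb in place of 10 kb gave 4.95%, 12.7% and 50.5% for wider peaks, 3.01%, 10.3% and 49.1% for HMEC UBF, and 14.1%, 31.0% and 78.1% for members. Between centres the shares were 17.7%, 16.1% and 41.4%. Wide peaks shared with HMEC alone gave 7.61%, and wide HMLER-only peaks alone 13.6%. Pol I overlap was 0.249% with 50% of the member covered, 3.20% with centres within 1 kb and 1.72% at 500 bp. The wider 50% of members gave 20.6% for wider peaks, 45.7% for members and 3.10% for Pol I, and the narrower 50% gave 19.04%, 40.7% and 1.40%. Without chromosome 19, 42.3% had another member. Leaving out members within 100 bp of an HMLER peak, a choice made with the data in view, gave 18.5% for wider peaks, 16.1% for HMEC UBF and 40.6% for members. Leaving out contigs and chromosome Y, or (also chosen with the data in view) the members of the smallest width, moved none of the results it was run on. Beyond the construction of each alternative, the cause was not tested. Peak strength and depth are unknown, so a missing HMEC peak cannot be told apart from one under the threshold.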

Other observations

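The share of narrower HMLER-only UBF peaks near chromosome ends was close to that of the whole HMLER list. Within 5 Mb of the first or last peak of a chromosome lay 14.5% (14.0 to 15.0) of the members on chromosomes 1 to 22 and X, against 14.9% (14.5 to 15.3) of all HMLER UBF peaks there, and the stretch makes up 7.81% of the span. Wide HMLER-only peaks stood higher, at 18.4% (17.3 to 19.5), and narrower and wide shared peaks at 13.4% (11.8 to 15.1) and 12.9% (11.7 to 14.1). The HMEC lists gave 17.2% (16.4 to 18.0) for UBF and 11.4% (10.7 to 12.02) for Pol I. The stretch was chosen after the data were seen.

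The 11 members on contigs lay on 8 of them, 4 on the contig gl000192 of chromosome 1 and 1 on each of the others. The human lists name contigs in different ways, and matching them by number left the count of members at 22471.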
